A study of Mus musculus with 25 samples.

Results

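Expression of 39 genes of glucose breakdown and the response to low oxygen was followed in RNA-seq of 5 murine melanoma cell lines. The genes were taken by name, with earlier results of these data known. They comprise 2 glucose transporters, 14 glycolytic enzymes, 2 lactate dehydrogenases, 1 pyruvate dehydrogenase kinase, 2 monocarboxylate transporters, 3 subunits of the hypoxia-inducible factor (HIF), 3 of its regulators, 2 carbonic anhydrases, 8 hypoxia response genes and 2 phosphofructokinase-2 enzymes. They are 39 of the 55385 genes listed, and all 39 were among the 15247 genes that passed the filter on low counts. Each line had 5 libraries, 25 in all, which the labels call biological replicates without describing them further, so the p-values measure the spread between these libraries. The study sorts the lines by how efficiently they colonised the liver of mice, and sets WT31, B16F10 luc2 and RET, of high or intermediate metastatic efficiency (HIM), against D4M and HCmel12, of low efficiency (LM). The RNA itself came from untreated cultured cells at 50% confluency and not from tumors.

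WT31 came from mice that carry Tyr::Nras Q61K, an Nras mutant behind the tyrosinase promoter, on an INK4a-/- background. RET came from MT/RET mice, in which the metallothionein promoter drives the RET oncogene. B16F10 luc2 is a purchased line with mutations in, among others, Trp53. D4M came from mice with the allele Braf CA and the driver Tyr::CreER, an inducible Cre behind the tyrosinase promoter that activates Braf. HCmel12 came from a primary melanoma of an HGF-CDK4(R24C) mouse. Each genotype is represented by 1 line, so genotype and line cannot be told apart. WT31 and RET were grown in RPMI with 10% fetal calf serum, and the methods name the same base medium for B16F10 luc2. HCmel12 was grown in it, likewise with 10% serum, with the addition of Hepes, β-mercaptoethanol, pyruvate and non-essential amino acids. D4M was grown in Advanced DMEM/F-12 with 5% serum. For D4M and HCmel12, line and medium cannot be told apart.

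Glycolysis splits glucose into pyruvate, which mitochondria can oxidise or lactate dehydrogenase can reduce to lactate for export, and many tumors keep a high rate of it even with oxygen at hand. HIF, a dimer of an oxygen-sensitive alpha subunit (Hif1a or Epas1) and the stable partner Arnt, raises the transcription of many of these genes when oxygen is low. With oxygen present, the prolyl hydroxylases Egln1 and Egln3 mark the alpha subunit for Vhl, which targets it for degradation, so this control acts on the protein rather than on the mRNA of the alpha subunits.

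The libraries held between 24199083 and 25843286 estimated counts, and levels are given as counts scaled to a library total of 1000000 (CPM), as means ± SD with n = 5 unless each library is listed. In a library 3 counts, the limit that a count of 0 allows, equal 0.116 to 0.124 CPM, which covers counting error only. All 25 libraries correlated best with another library of their own line (0.9862 to 0.9977 within lines and at most 0.9664 between them). D4M stood apart in its lineage genes: the summed level of 8 melanocyte markers was 5.88 to 54.5 CPM in D4M, highest in replicate 1, and 12591 to 31153 CPM in the other 4 lines. The 6 fibroblast markers summed to 429.8 to 657 CPM in D4M and to at most 106 CPM elsewhere, with Lum at 0 in D4M. The part of these lineage genes in the D4M values below was not tested. In HCmel12, replicate 4 stood apart in members of the list, as described further on, and results that rest on it are given with and without it. In bulk RNA, fewer cells with a transcript and less transcript per cell cannot be told apart.

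HIF binds DNA at a short core, ACGTG or GCGTG, so these letters were counted in windows from 250 bases before to 50 bases after the annotated gene starts (RefSeq, GRCm38.p6). Windows were on hand for 35 of the 39 genes, 52 windows of 300 bases in all, and not for Slc2a3, Epas1, Bnip3l and Ndrg1. Both strands were searched (CACGT and CACGC are the same cores on the other strand), and overlapping cores on opposite strands were each counted, so a CACGTG counts as 2. At least 1 core lay in a window of 30 of the 35 genes (85.7%), against 46.7% of all genes with a window and 52.3% of the protein-coding ones. By window the share was 39 of 52 (75.0%), against 43.8% of all 32851 windows, and CACGTG lay in 6 of the 35 genes (17.1%), against 8.1% of all genes. A match describes the letters of a window and is not a binding site.

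The windows below belong to members that the results turn on: Bnip3, Pdk1 and Aldoc were highest in 1 HCmel12 library, Egln3 and Ankrd37 stood highest in D4M, and Ldha held the most cores. They are written 5′ to 3′ on the strand of the gene, with every core in capitals. The Bnip3 window (chr7:138909457-138909756, minus strand) held 5 cores, the first Pdk1 window (chr2:71872974-71873273, plus strand) held 2 and the first Aldoc window (chr11:78322823-78323122, plus strand) held 3. The Egln3 window (chr12:54203825-54204124, minus strand) held 1, the Ankrd37 window (chr8:45999801-46000100, minus strand) held 4 and the first Ldha window (chr7:46845554-46845853, plus strand) held 7.
Bnip3: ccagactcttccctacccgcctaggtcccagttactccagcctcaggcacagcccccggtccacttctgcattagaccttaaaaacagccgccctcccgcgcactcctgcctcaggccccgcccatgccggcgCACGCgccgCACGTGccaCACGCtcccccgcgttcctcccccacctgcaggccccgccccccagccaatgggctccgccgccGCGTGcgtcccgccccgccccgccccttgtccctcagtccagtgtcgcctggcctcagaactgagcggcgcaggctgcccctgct
Pdk1: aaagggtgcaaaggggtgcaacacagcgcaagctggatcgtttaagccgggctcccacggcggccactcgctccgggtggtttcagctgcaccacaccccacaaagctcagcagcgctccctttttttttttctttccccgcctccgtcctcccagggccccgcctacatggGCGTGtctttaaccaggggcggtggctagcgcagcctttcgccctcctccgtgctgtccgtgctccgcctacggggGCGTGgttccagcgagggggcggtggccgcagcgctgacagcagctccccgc
Aldoc: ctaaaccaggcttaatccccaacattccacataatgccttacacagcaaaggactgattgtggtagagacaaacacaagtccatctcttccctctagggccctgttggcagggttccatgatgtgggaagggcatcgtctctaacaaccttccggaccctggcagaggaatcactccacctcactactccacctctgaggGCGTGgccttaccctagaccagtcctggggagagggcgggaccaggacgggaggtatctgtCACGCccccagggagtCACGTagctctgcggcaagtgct
Egln3: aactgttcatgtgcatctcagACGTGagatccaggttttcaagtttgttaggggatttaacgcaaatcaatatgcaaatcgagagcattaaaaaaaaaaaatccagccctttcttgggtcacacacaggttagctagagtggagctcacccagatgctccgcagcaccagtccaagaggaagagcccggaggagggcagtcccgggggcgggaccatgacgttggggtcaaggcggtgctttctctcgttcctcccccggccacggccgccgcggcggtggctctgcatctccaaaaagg
Ankrd37: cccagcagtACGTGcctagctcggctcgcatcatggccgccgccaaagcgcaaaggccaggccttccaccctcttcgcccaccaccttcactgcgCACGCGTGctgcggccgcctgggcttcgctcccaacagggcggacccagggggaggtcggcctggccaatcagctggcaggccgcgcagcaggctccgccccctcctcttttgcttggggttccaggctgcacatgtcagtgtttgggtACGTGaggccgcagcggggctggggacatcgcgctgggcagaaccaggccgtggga
Ldha: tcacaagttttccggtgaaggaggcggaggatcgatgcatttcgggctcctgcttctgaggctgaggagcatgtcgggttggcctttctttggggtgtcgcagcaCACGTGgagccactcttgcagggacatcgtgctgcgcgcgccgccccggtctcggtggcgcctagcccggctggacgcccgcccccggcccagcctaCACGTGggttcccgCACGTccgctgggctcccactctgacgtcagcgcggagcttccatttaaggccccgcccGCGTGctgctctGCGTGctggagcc

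Every one of the 39 genes differed between the lines by limma's F-test, as did 96.8% of all genes tested. Between the highest and the lowest line 13 genes differed at least 8-fold, 20 from 2- to 8-fold and 6 less than 2-fold. These classes were not counted over all genes tested, so they do not show whether the 39 genes spanned more than others. By fitted level, B16F10 luc2 was the highest line for 12 genes, D4M for 10, RET for 9, WT31 for 6 and HCmel12 for 2. The same lines were highest for 18%, 27.4%, 15.8%, 22.1% and 16.6% of all genes tested. Mxi1, counted here for HCmel12, rested on replicate 4: without that library its HCmel12 mean was 37.7 CPM, below the 39.8 CPM of RET. WT31 was the lowest line for 21 of the 39 genes, while it was lowest for 22.6% of all genes tested. HCmel12 was the lowest line for 0 of the 39, against 17% of all genes.

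**Figure D1:**
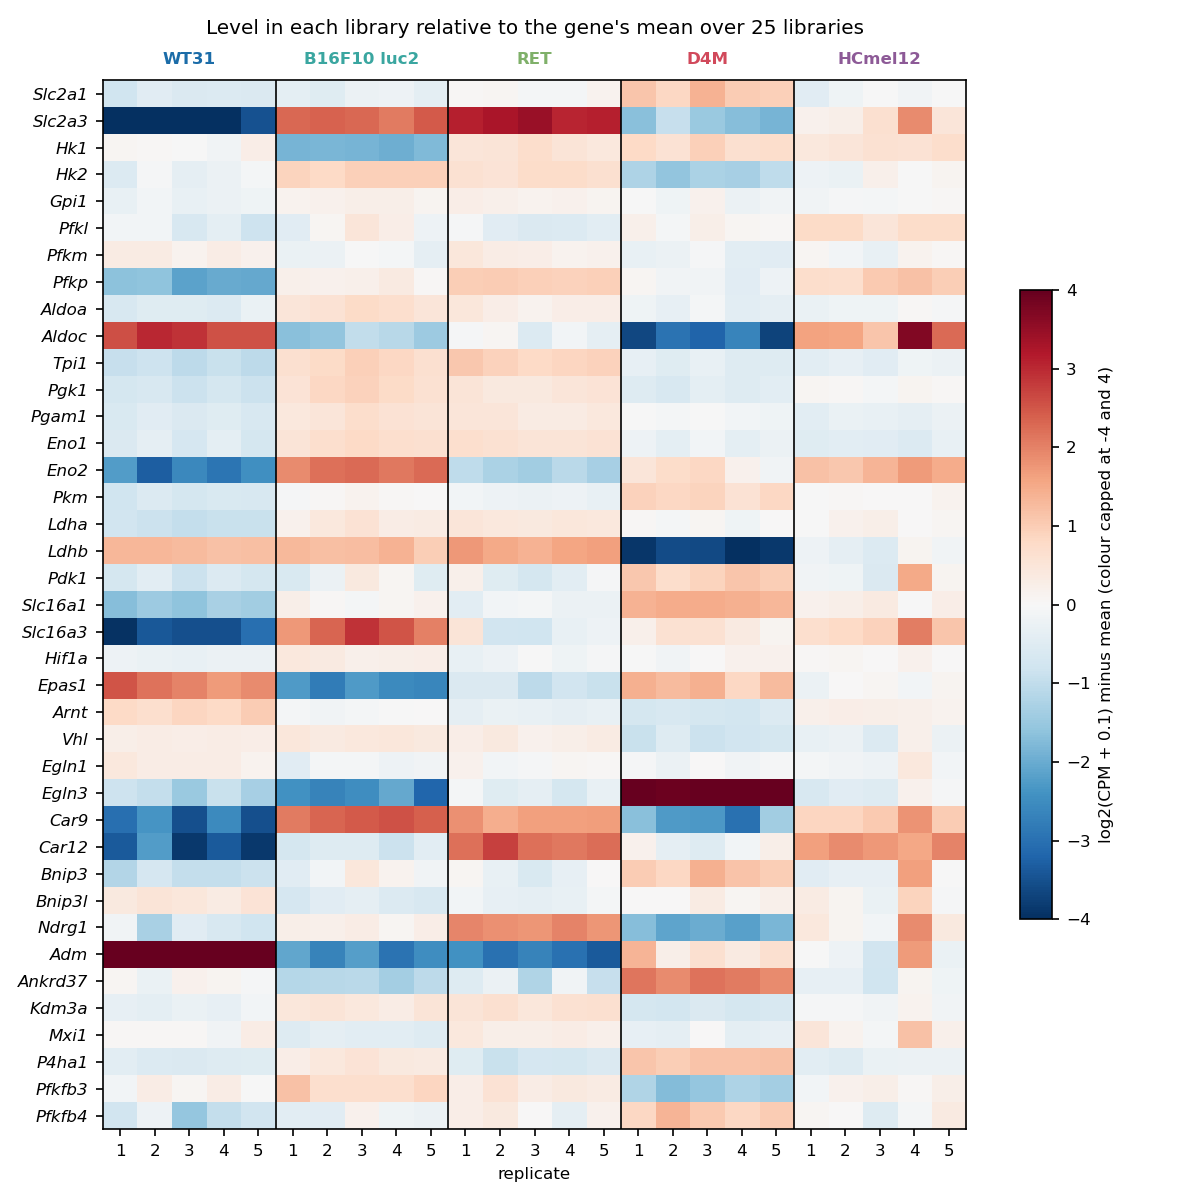
Colour map of the 39 genes (rows, in the order of the pathway) in the 25 libraries (columns, grouped by line), showing the log2 of CPM plus 0.1 minus the mean of the gene over all 25 libraries, with colours capped at -4 and 4. The 5 libraries of a line mostly share a colour, the WT31 block is below the mean for most glycolytic enzymes, and HCmel12 replicate 4 departs from its own line among the hypoxia response genes.

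Glucose enters through facilitative transporters, of which Slc2a1 (GLUT1) is the widespread form and Slc2a3 (GLUT3) a high-affinity form best known from neurons. Slc2a1 was measured at 162 ± 25 CPM in D4M, 78.5 ± 4.82 in RET, 69.8 ± 8.43 in HCmel12, 60.8 ± 4.69 in B16F10 luc2 and 51.2 ± 4.47 in WT31. D4M was above the other 4 lines and WT31 was lowest (log2 fold change 1.88 ± 0.094 (SE), adjusted p = 8.4e-16). Slc2a3 was at 0, 0.163, 0.209, 0.165 and 0.486 CPM in the WT31 libraries, 32.1, 33.8, 32.3, 27.9 and 36.3 CPM in those of B16F10 luc2 and 57.4, 63.3, 71.9, 54.2 and 56.4 CPM in those of RET. The D4M libraries were at 1.98, 3.41, 2.23, 1.91 and 1.72 CPM and the HCmel12 libraries at 7.41, 7.72, 10.1, 24.1 and 9.05 CPM. RET and B16F10 luc2 were high, D4M and WT31 were low, no 2 lines overlapped, and the summed counts of RET were 292-fold (95% exact interval 199 to 447) those of WT31, in which only 26 counts were found. The exact intervals here and below cover counting error only, not the spread between libraries. The call of D4M above WT31 was lost when Slc2a3 counts were summed with those of genes sharing at least 1% of its 31-base stretches. Dgka, a different gene, shares the most of them (1.11%), and the sum adds its counts, so it does not bear on Slc2a3 alone. Of the summed TPM of both transporters, a level that is scaled by transcript length, Slc2a3 held 45% ± 4.48 in RET, 35.9% ± 4.43 in B16F10 luc2, 11.5% ± 4.33 in HCmel12, 1.3% ± 0.44 in D4M and 0.352% ± 0.21 in WT31; n = 4 for D4M here and in all TPM values, since the TPM of its replicate 1 were not used. Without HCmel12 replicate 4, whose 24.1 CPM lay above the 7.41 to 10.1 CPM of its line, the order of the lines was the same.

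Hexokinases trap glucose as its phosphate. Hk1, the housekeeping form, was at 317 ± 35 CPM in D4M, 280.2 ± 22.7 in HCmel12, 274 ± 19.2 in RET, 196 ± 19.7 in WT31 and 52.2 ± 2.36 in B16F10 luc2. Hk2, the inducible form that is often raised in tumors, was at 94.9 ± 4.64 CPM in B16F10 luc2, 79.5 ± 4.17 in RET, 49.7 ± 6.88 in HCmel12, 42.6 ± 5.82 in WT31 and 20.9 ± 2.86 in D4M. The highest line of each was the lowest of the other, Hk1 being highest in D4M and lowest in B16F10 luc2 (log2 fold change 2.75 ± 0.077 (SE), adjusted p = 5.5e-21) and Hk2 highest in B16F10 luc2 and lowest in D4M (log2 fold change 2.04 ± 0.102 (SE), adjusted p = 7.7e-16). WT31 was below RET for both. By TPM, Hk2 made up 54.6% ± 2.17 in B16F10 luc2, 15.3% ± 0.84 in RET, 12.4% ± 1.64 in WT31, 10.8% ± 0.87 in HCmel12 and 4.32% ± 0.68 in D4M, so that B16F10 luc2 was the only line of the 5 with more Hk2 than Hk1.

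Glucose phosphate isomerase, Gpi1, was at 964 ± 35.9 CPM in B16F10 luc2, 958 ± 37.2 in RET, 819 ± 41 in HCmel12, 808 ± 91.7 in D4M and 734 ± 40.8 in WT31, one of the 6 members that differed less than 2-fold between the highest and the lowest line (log2 fold change 0.47 ± 0.060 (SE), adjusted p = 1.2e-07). Phosphofructokinase commits sugar to glycolysis and exists as liver (Pfkl), muscle (Pfkm) and platelet (Pfkp) forms. Pfkp was at 143 ± 4.21 CPM in RET, 139.6 ± 21.3 in HCmel12, 84.1 ± 6.60 in B16F10 luc2, 65.3 ± 8.46 in D4M and 19.9 ± 3.47 in WT31. WT31 was the low line for it, and RET and HCmel12 were high (RET against WT31, log2 fold change 2.88 ± 0.115 (SE), adjusted p = 1.5e-17). The difference between RET and HCmel12 was not called. It was when Pfkp was summed with the genes that share at least 1% of its 31-base stretches. Pitrm1, a different gene, shares the most of them (5.28%), and the sum adds its counts, so that call is not one on Pfkp alone. Pfkl was highest in HCmel12 at 214 ± 15.6 CPM and low in both WT31, at 101 ± 22.1 CPM, and RET, at 100.4 ± 16.2 CPM (HCmel12 against WT31, log2 fold change 1.16 ± 0.142 (SE), adjusted p = 6.5e-08). The Pfkl levels of WT31 and RET did not differ beyond their spread (adjusted p = 0.88 by limma). Pfkm was at 45.9 ± 4.13 CPM in RET, 45.2 ± 2.92 in WT31, 37.4 ± 4.52 in HCmel12, 33.5 ± 3.18 in B16F10 luc2 and 31.2 ± 3.57 in D4M, with less than a 2-fold span. By TPM, Pfkp held 52.5% ± 3.80 in RET, 38.8% ± 5.33 in HCmel12, 36.8% ± 4.68 in B16F10 luc2, 29.8% ± 1.96 in D4M and 13% ± 1.25 in WT31 of the 3 forms. The 2 phosphofructokinase-2 enzymes, which set the level of the allosteric activator fructose 2,6-bisphosphate, differed in their order: Pfkfb3 was highest in B16F10 luc2 at 34.5 ± 5.80 CPM and lowest in D4M at 7.35 ± 1.11 CPM (log2 fold change 2.08 ± 0.132 (SE), adjusted p = 1.1e-13). Pfkfb4 was highest in D4M at 5.75 ± 0.88 CPM and lowest in WT31 at 1.56 ± 0.54 CPM (log2 fold change 2.15 ± 0.200 (SE), adjusted p = 2.7e-10).

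**Figure D2:**
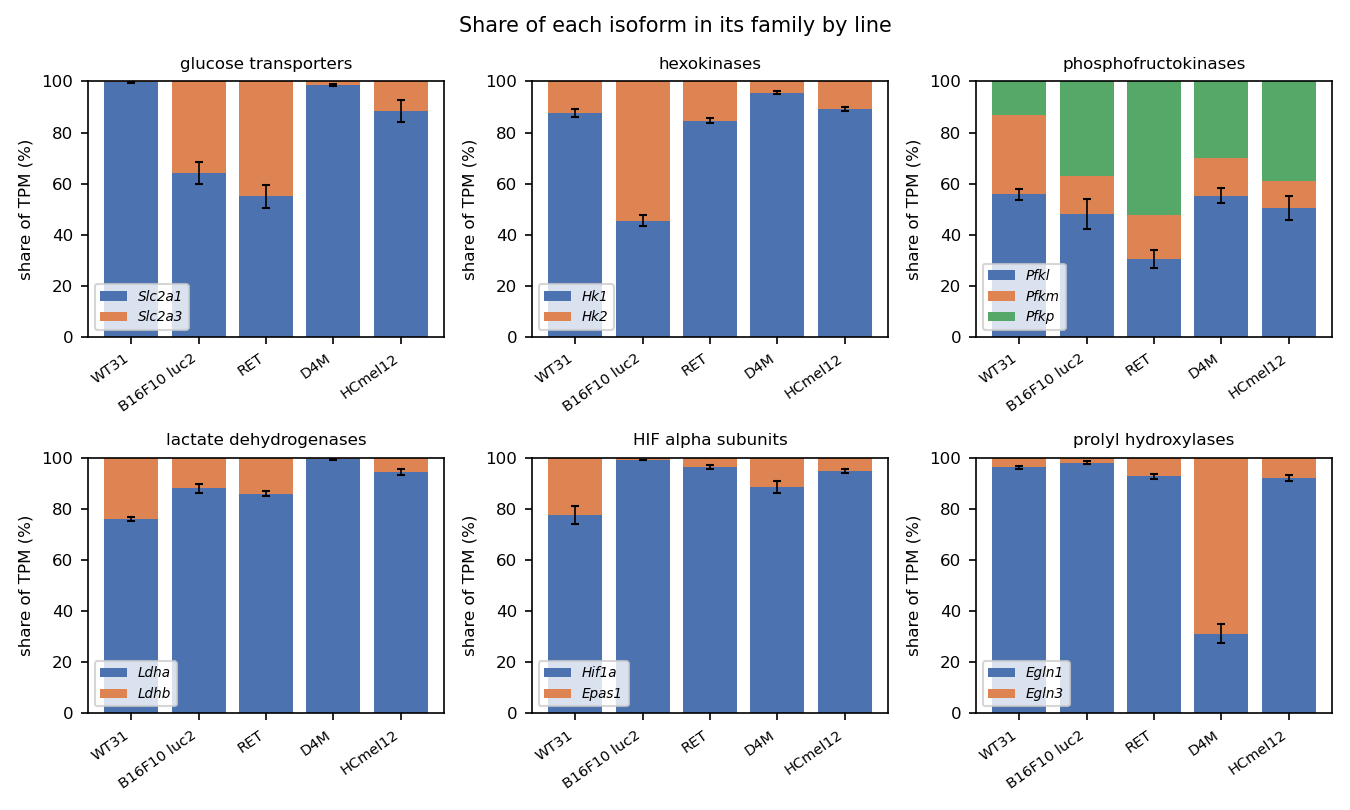
Stacked bars of the share of each isoform in the summed TPM of its family (percent, y axis) in the 5 lines (x axis), as means, with error bars for the SD of the isoform at the bottom (n = 5, 4 for D4M). Hk2 passes Hk1 in B16F10 luc2 alone, Egln3 passes Egln1 in D4M alone, and Ldhb is near 0 in D4M.

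From aldolase on, WT31 had the lowest fitted level of the main form of every enzyme listed. Aldoa, which cleaves fructose 1,6-bisphosphate, was at 2230.0 ± 176 CPM in B16F10 luc2, 1787 ± 134 in RET, 1354 ± 122 in HCmel12, 1227 ± 123 in D4M and 1062 ± 106 in WT31. Tpi1, which interconverts the triose phosphates, was at 1235 ± 93.5 CPM in RET, 1118 ± 109 in B16F10 luc2, 526 ± 44.4 in HCmel12, 489 ± 33.4 in D4M and 342 ± 23.4 in WT31. Pgk1, which makes the first ATP of the pathway, was at 1829.8 ± 201 CPM in B16F10 luc2, 1514 ± 76.1 in RET, 1131 ± 57.6 in HCmel12, 780.4 ± 49.5 in D4M and 648 ± 45.5 in WT31. For these 3 genes B16F10 luc2 and RET were the higher lines and WT31 the lowest, and the largest of these differences was that of Tpi1 between RET and WT31 (log2 fold change 1.87 ± 0.071 (SE), adjusted p = 5e-18). Pgam1, the phosphoglycerate mutase, was at 1124 ± 79.9 CPM in B16F10 luc2, 1022 ± 54.1 in RET, 729.9 ± 35.7 in D4M, 619.5 ± 32.7 in HCmel12 and 524 ± 30.5 in WT31. Eno1, the common enolase, was at 3805 ± 276 CPM in B16F10 luc2, 3577 ± 167 in RET, 2006 ± 169 in D4M, 1771 ± 117 in HCmel12 and 1654 ± 179.6 in WT31, and the difference between WT31 and HCmel12 lay at the threshold (adjusted p = 0.051 by limma). It was called with DESeq2 and without HCmel12 replicate 4 (adjusted p = 0.028 by limma), among other settings. Pkm, the pyruvate kinase that ends the pathway, was at 3829.8 ± 339 CPM in D4M, 2233 ± 90.8 in HCmel12, 2231 ± 105 in B16F10 luc2, 1883 ± 94.8 in RET and 1381 ± 93.2 in WT31, and D4M was its highest line (log2 fold change 1.70 ± 0.058 (SE), adjusted p = 4e-19). Between 10.5% and 54.7% of the 31-base stretches of Aldoa, Tpi1, Pgk1, Pgam1, Eno1 and Pkm also occur in other genes, so that the quantification had to apportion reads between them.

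The 2 other isoforms of this stretch were nearly absent from some lines. Aldoc, the brain-type aldolase, was at 22.6, 30.7, 28.4, 22.4 and 22.4 CPM in the WT31 libraries, 1.1, 1.19, 1.86, 1.68 and 1.3 CPM in those of B16F10 luc2 and 3.61, 3.95, 2.51, 3.47 and 2.89 CPM in those of RET. D4M had 0.207, 0.397, 0.319, 0.517 and 0.195 CPM, and HCmel12 had 11.7, 11.4, 8.2, 49.7 and 18.3 CPM. WT31 and HCmel12 were the high lines, D4M was below 1 CPM throughout, and the highest single library was HCmel12 replicate 4. The summed counts of WT31 were 77.3-fold (95% exact interval 56.8 to 108) those of D4M, in which 41 counts were found. Eno2, the neuronal enolase, was at 1.37, 0.604, 1.05, 0.805 and 1.16 CPM in the WT31 libraries, 25.5, 31.5, 32.9, 29.6 and 33.1 CPM in those of B16F10 luc2 and 3.28, 2.78, 2.55, 3.14 and 2.61 CPM in those of RET. Its levels in D4M were 9.46, 11.4, 12.2, 7.6 and 6.07 CPM, and its levels in HCmel12 were 15.3, 14.3, 17.4, 22.2 and 19 CPM. B16F10 luc2 was above every other library, HCmel12 and D4M were between, RET and WT31 were low without overlapping, and the summed counts of B16F10 luc2 were 30.5-fold (95% exact interval 25.5 to 36.8) those of WT31.

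Summed over the 14 glycolytic enzymes, the level per length was 1.14% ± 0.068 of all TPM in B16F10 luc2, 1.00% ± 0.039 in RET, 0.813% ± 0.068 in D4M, 0.702% ± 0.031 in HCmel12 and 0.570% ± 0.031 in WT31. By the fitted level, which is scaled by TMM and not by length, WT31 was the lowest line for 10 of these 14 genes (22.6% of all genes) and the highest for 1, Aldoc (22.1%), while B16F10 luc2 was the highest for 7 (18%). Among the 10 are Pfkl and Eno1, for which the mean TPM was lower in RET and in HCmel12, respectively. Gapdh, which acts between Tpi1 and Pgk1 and is outside the list, was at 8941 CPM in RET, 6631 in B16F10 luc2, 3669 in D4M, 3516 in HCmel12 and 2680.4 in WT31. Its lowest line was thus also WT31.

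**Figure D3:**
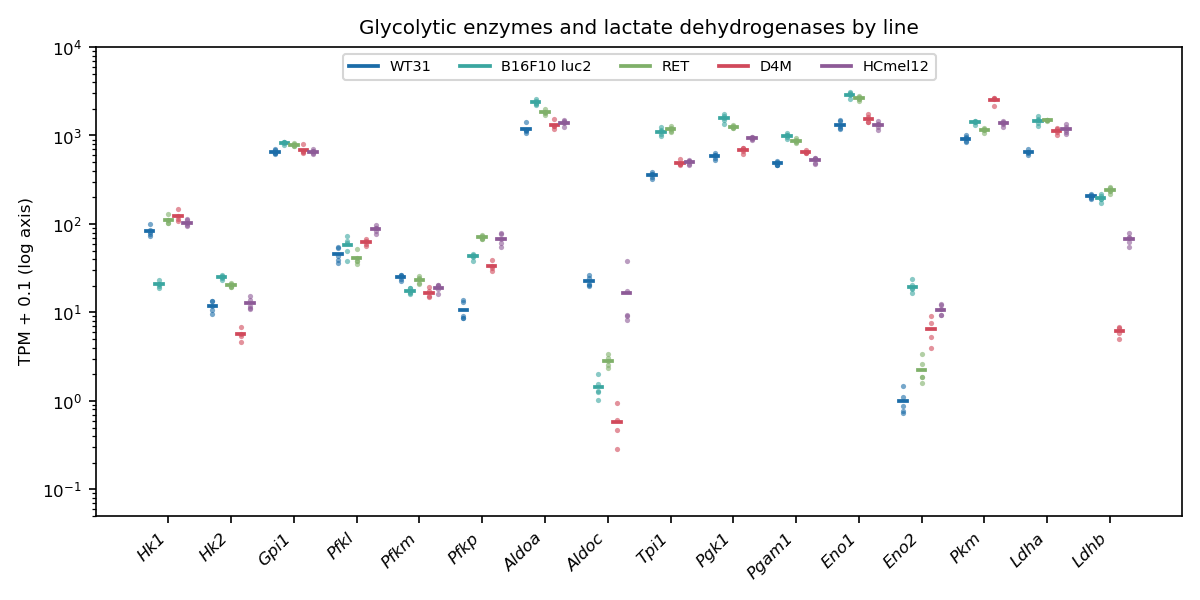
Level of the 14 glycolytic enzymes and both lactate dehydrogenases in TPM (log y axis) in the order of the pathway (x axis), with a point for each library and a dash at the mean of each cell line (n = 5, 4 for D4M) on TPM plus 0.1. WT31 is the lowest line for Tpi1, Pgk1, Pgam1, Pkm and Ldha, B16F10 luc2 and RET are the highest for Aldoa, Tpi1, Pgk1, Pgam1 and Eno1, and Ldhb is lowest in D4M.

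Pyruvate is reduced to lactate by lactate dehydrogenase, whose Ldha subunit favours lactate formation and whose Ldhb subunit the reverse reaction. Ldha was at 1526 ± 46 CPM in RET, 1457 ± 158 in B16F10 luc2, 1212 ± 88.2 in HCmel12, 1110.1 ± 73.1 in D4M and 617 ± 30.1 in WT31. WT31 was below the other 4 lines, and RET and B16F10 luc2 did not differ beyond their spread (RET against WT31, log2 fold change 1.33 ± 0.063 (SE), adjusted p = 5.2e-16). Ldhb was at 161, 159, 152, 143 and 146 CPM in the WT31 libraries, 157, 146, 151, 169 and 128 CPM in those of B16F10 luc2 and 211, 181, 168, 190.4 and 198 CPM in those of RET. The LM lines had Ldhb at 4.17, 5.24, 5.14, 3.54 and 4.32 CPM in D4M and 56, 49.5, 43.5, 68.6 and 58.2 CPM in HCmel12. All 15 HIM libraries were above all 10 LM libraries, D4M was lowest with at most 5.24 CPM, and the span between RET and D4M was log2 fold change 5.20 ± 0.167 (SE), adjusted p = 7.9e-20. By TPM, Ldhb made up 24% ± 0.73 in WT31, 14% ± 0.88 in RET, 11.9% ± 1.68 in B16F10 luc2, 5.51% ± 1.18 in HCmel12 and 0.53% ± 0.069 in D4M of both subunits. The gene Gm5514 shares 33.0% of the 31-base stretches of Ldhb, and summing the counts of genes that share at least 1% left Ldhb called higher in all 6 comparisons of an HIM with an LM line. Of the 31-base stretches of Ldha, 19.6% occur in other genes. When its counts were summed with those of the genes that share at least 1% of them, the difference between RET and WT31 was 0.07 on the log2 scale (adjusted p = 0.11 by limma). The sum adds all counts of those genes, so it cannot show whether the Ldha difference rests on shared sequence. In the same sum the calls of Ldha in WT31 against D4M and against HCmel12 were lost, and the call against B16F10 luc2 was kept.

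Pdk1, a kinase that turns off pyruvate dehydrogenase and so keeps pyruvate from the mitochondria, was at 13, 15.6, 11.4, 14.3 and 12.7 CPM in the WT31 libraries, 13.8, 18, 27.2, 22.3 and 15 CPM in those of B16F10 luc2 and 24.3, 14.9, 12.9, 15.6 and 20.2 CPM in those of RET. In the LM lines it was at 44.2, 34.1, 39.3, 45 and 41.2 CPM for D4M and 19.2, 18.7, 14.1, 59.7 and 22.8 CPM for HCmel12. D4M was high with all 5 libraries above every library of WT31, B16F10 luc2 and RET, and HCmel12 replicate 4 alone was above D4M (D4M against WT31, log2 fold change 1.83 ± 0.258 (SE), adjusted p = 4.8e-07). Lactate leaves or enters through the monocarboxylate transporters Slc16a1 (MCT1) and Slc16a3 (MCT4, the form known for export). Slc16a1 was at 38.5, 46, 41.8, 51.6 and 47.9 CPM in the WT31 libraries, 148, 131, 119, 134 and 142 CPM in those of B16F10 luc2 and 94.8, 116, 120.5, 107 and 106 CPM in those of RET. The D4M libraries were at 334, 353, 358, 336 and 316 CPM and the HCmel12 libraries at 143, 149.6, 161, 125 and 152 CPM. D4M was highest and WT31 lowest, both without overlap with any other line (log2 fold change 3.14 ± 0.081 (SE), adjusted p = 1.2e-21). Slc16a3 was at 0.243, 0.406, 0.364, 0.363 and 0.549 CPM in the WT31 libraries, 17.7, 26.7, 39.3, 30.1 and 21.1 CPM in those of B16F10 luc2 and 7.42, 3.02, 2.96, 4.2 and 4.51 CPM in those of RET. D4M had 6.04, 7.99, 7.93, 6.77 and 5.57 CPM, and HCmel12 had 8.39, 9.15, 9.99, 21.8 and 11.3 CPM. B16F10 luc2 was the high line, overlapping only with HCmel12 replicate 4, all WT31 libraries were below 1 CPM, and the summed counts of B16F10 luc2 were 69.9-fold (95% exact interval 52.6 to 95) those of WT31. Slc16a1 thus had its highest level in D4M and Slc16a3 in B16F10 luc2, although Slc16a1 was above Slc16a3 in each of these lines.

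Of the HIF subunits, Hif1a was at 192, 182, 179.8, 189 and 188 CPM in the WT31 libraries, 292, 280.3, 253, 260.4 and 264 CPM in those of B16F10 luc2 and 179, 192, 216, 194 and 212 CPM in those of RET. Its levels in D4M were 216, 199.99, 224, 247 and 247 CPM, and its levels in HCmel12 were 230.1, 232, 224, 246 and 223 CPM. Every B16F10 luc2 library was above all others, and WT31 and RET were low and overlapped (B16F10 luc2 against WT31, log2 fold change 0.60 ± 0.059 (SE), adjusted p = 7.1e-10). After TMM scaling, the Hif1a levels of B16F10 luc2 and D4M did not differ beyond their spread (log2 fold change 0.10 ± 0.058 (SE), adjusted p = 0.13 by limma), whereas with library size or TPM the difference was called. Epas1, which encodes the other alpha subunit, HIF-2alpha, was at 87.3, 68.3, 60.4, 49.5 and 56.3 CPM in the WT31 libraries, 3.07, 2.1, 3.03, 2.46 and 2.36 CPM in those of B16F10 luc2 and 10.1, 9.97, 7.27, 8.77 and 8.13 CPM in those of RET. The LM lines had Epas1 at 40.2, 36.2, 40.8, 26.6 and 36.4 CPM in D4M and 12.8, 15.1, 15.9, 13.9 and 16.1 CPM in HCmel12. No 2 lines overlapped, WT31 was highest, D4M next and B16F10 luc2 lowest (log2 fold change 4.53 ± 0.232 (SE), adjusted p = 2e-15). By TPM, Epas1 made up 22.3% ± 3.64 in WT31, 11.4% ± 2.35 in D4M, 5.08% ± 0.6 in HCmel12, 3.64% ± 0.74 in RET and 0.833% ± 0.14 in B16F10 luc2 of both alpha subunits. Arnt, the shared beta subunit, was at 107, 98.3, 112, 107 and 124 CPM in the WT31 libraries, 58.2, 56.1, 58.7, 60.6 and 61.4 CPM in those of B16F10 luc2 and 47.5, 50.8, 50.0, 48.2 and 50.1 CPM in those of RET. In the LM lines it was at 37.3, 39.5, 37.3, 36.8 and 42.3 CPM for D4M and 70.2, 73.4, 71.8, 70.9 and 67 CPM for HCmel12. In CPM the 5 lines did not overlap for it either, with WT31 highest and D4M lowest (log2 fold change 1.28 ± 0.054 (SE), adjusted p = 2.2e-17). The Arnt difference between RET and D4M was small after TMM scaling (log2 fold change 0.15 ± 0.056 (SE), adjusted p = 0.018 by limma). It was not called with DESeq2 or without D4M replicate 1, 3 or 4. WT31 thus had the highest Epas1 and Arnt of the 5 lines, and the difference of its low Hif1a from that of RET was not called (adjusted p = 0.091 by limma), but was without RET replicate 1.

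Of the genes that keep HIF low in oxygen, Vhl, the substrate receptor of the ubiquitin ligase, was at 32.5, 33.5, 33.1, 33.9 and 33 CPM in the WT31 libraries, 37.5, 34.9, 37.1, 37.3 and 35.9 CPM in those of B16F10 luc2 and 33, 36.2, 30.7, 32.3 and 34.2 CPM in those of RET. The D4M libraries were at 14.8, 19.2, 15.1, 16.2 and 16.6 CPM and the HCmel12 libraries at 22.3, 23.1, 18.8, 31.5 and 23.1 CPM. Its HIM libraries spanned 30.7 to 37.5 CPM, D4M was lowest, and HCmel12 was between, with replicate 4 at 31.5 CPM reaching into the HIM range (B16F10 luc2 against D4M, log2 fold change 1.01 ± 0.089 (SE), adjusted p = 9.3e-11). Egln1, the main prolyl hydroxylase in oxygen, was at 106, 96, 95.8, 96.2 and 86.9 CPM in the WT31 libraries, 57.4, 73.8, 73.3, 67.6 and 71.2 CPM in those of B16F10 luc2 and 87.2, 72.2, 76.2, 81.9 and 80.0 CPM in those of RET. D4M had 75.1, 66, 78.3, 70.4 and 74.9 CPM, and HCmel12 had 74.2, 70.5, 67.9, 104 and 72.5 CPM. WT31 was highest, overlapping only with RET replicate 1 and HCmel12 replicate 4, and the other 4 lines overlapped among themselves (WT31 against B16F10 luc2, log2 fold change 0.42 ± 0.089 (SE), adjusted p = 0.00017). After TMM scaling, the difference of WT31 from D4M was not called (log2 fold change 0.17 ± 0.089 (SE), adjusted p = 0.08 by limma), whereas it was with library size, with TPM or without HCmel12 replicate 4. Egln3, a hydroxylase that HIF itself induces, was at 3.15, 2.9, 1.98, 3.02 and 2.21 CPM in the WT31 libraries, 0.985, 0.822, 0.949, 1.31 and 0.551 CPM in those of B16F10 luc2 and 5.45, 4.03, 4.48, 3.47 and 4.67 CPM in those of RET. Its levels in D4M were 118, 88.6, 139, 138 and 109 CPM, and its levels in HCmel12 were 3.64, 4.17, 3.96, 6.47 and 5.58 CPM. D4M was above every other library, of which the highest was at 6.47 CPM, and its summed counts were 128-fold (95% exact interval 107 to 156) those of B16F10 luc2. By TPM, Egln3 made up 68.9% ± 3.77 in D4M, 7.75% ± 1.17 in HCmel12, 7.11% ± 0.93 in RET, 3.65% ± 0.57 in WT31 and 1.85% ± 0.62 in B16F10 luc2 of both hydroxylases, so that D4M alone among the 5 lines had more Egln3 than Egln1. The Egln3 window shown above held 1 core and the Egln1 window 2.

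**Figure D4:**
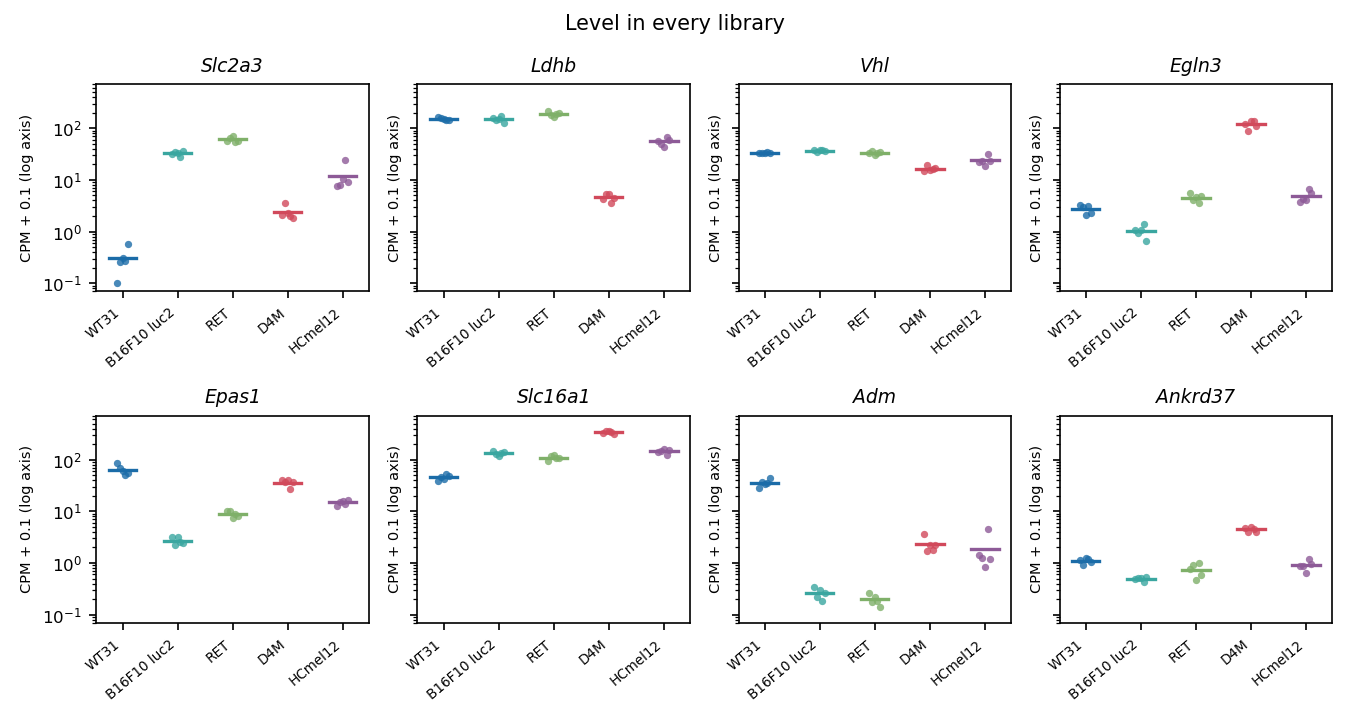
Level of Slc2a3, Ldhb, Vhl, Egln3, Epas1, Slc16a1, Adm and Ankrd37 in CPM plus 0.1 (log y axis) in the 5 lines (x axis), with a point for each of the 5 libraries and a bar at the mean. Ldhb is lowest in the D4M libraries, which hold the highest Egln3, Slc16a1 and Ankrd37, and Adm is high in WT31 alone.

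The 2 carbonic anhydrases on the list sit in the cell membrane and buffer the acid that glycolysis releases. Car9, a widely used marker of HIF activity, was at 0.0404, 0.121, 0, 0.0941 and 0 CPM in the WT31 libraries, 4.72, 5.63, 6.23, 6.65 and 5.88 CPM in those of B16F10 luc2 and 3.93, 3.06, 3.49, 3.5 and 3.54 CPM in those of RET. The LM lines had Car9 at 0.258, 0.136, 0.135, 0.0436 and 0.338 CPM in D4M and 1.96, 1.96, 2.26, 3.87 and 2.19 CPM in HCmel12. B16F10 luc2 was highest and RET next without overlap with it, while the 5 WT31 libraries together held 6 counts, and the summed counts of B16F10 luc2 were 121-fold (95% exact interval 55.4 to 331) those of WT31. HCmel12 replicate 4, at 3.87 CPM, lay within the range of RET. The call of RET above HCmel12 was lost with edgeR, with no filter on counts and without several single libraries. Car12 was at 0.0404, 0.207, 0, 0.0403 and 0 CPM in the WT31 libraries, 0.788, 0.908, 0.907, 0.698 and 0.984 CPM in those of B16F10 luc2 and 6.6, 9.43, 6.49, 6.2 and 6.65 CPM in those of RET. In the LM lines it was at 1.53, 1.03, 0.917, 1.23 and 1.6 CPM for D4M and 4.46, 5.27, 4.73, 4.12 and 5.66 CPM for HCmel12. RET was highest, HCmel12 next, and WT31 again lowest with 7 counts, the summed counts of RET being 127-fold (95% exact interval 61.2 to 316) as high. At such depth the WT31 levels of both genes were at or near the limit that a count of 0 allows.

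Among the hypoxia response genes, Bnip3, a mitophagy receptor, was at 9.4, 13.4, 11, 11.1 and 11.7 CPM in the WT31 libraries, 15.8, 19.9, 29.7, 23.5 and 19.4 CPM in those of B16F10 luc2 and 22.7, 17.6, 14.1, 17 and 21.9 CPM in those of RET. The D4M libraries were at 43.5, 38, 57.2, 47.4 and 43.1 CPM and the HCmel12 libraries at 15.7, 17.2, 17.1, 66.8 and 21.3 CPM. D4M was high, WT31 was low, and HCmel12 replicate 4 was above all 24 other libraries (D4M against WT31, log2 fold change 2.24 ± 0.279 (SE), adjusted p = 6e-08). Of its 31-base stretches 46.7% occur in a long noncoding gene, AC160336.1, which stood at 1714 ± 366 CPM in D4M, 264 ± 29.9 in WT31 and 23.6 ± 1.02 in B16F10 luc2, so the quantification had to apportion reads of the pair. The sum of Bnip3 and the genes that share at least 1% of its stretches was called lower in all 6 comparisons of an HIM with an LM line. Bnip3 alone was called lower in 4 of them. For the sum, WT31 was called higher, not lower, than B16F10 luc2 and RET. Bnip3l, its homologue, was at 116 ± 7.20 CPM in WT31, 102 ± 34.1 in HCmel12, 94.2 ± 9.18 in D4M, 73.1 ± 6.21 in RET and 59.2 ± 5.47 in B16F10 luc2, with WT31 highest and B16F10 luc2 lowest (log2 fold change 0.91 ± 0.132 (SE), adjusted p = 8.8e-07). Without HCmel12 replicate 4, at 159 CPM, its HCmel12 mean was 88.4 CPM, below that of D4M, and HCmel12 was called lower than WT31 and D4M, which it was not with that library. Ndrg1, a stress-responsive gene that is strongly induced by low oxygen, was at 31.5, 14.2, 25.7, 22.2 and 20.1 CPM in the WT31 libraries, 41.1, 40.5, 43.3, 37 and 41.5 CPM in those of B16F10 luc2 and 136, 123, 119, 139.9 and 119 CPM in those of RET. D4M had 10.6, 7.94, 8.77, 7.62 and 9.77 CPM, and HCmel12 had 47.2, 38, 32.2, 131 and 45.9 CPM. RET was high, D4M was low, and HCmel12 replicate 4 alone among the other lines lay in the range of RET (RET against D4M, log2 fold change 3.63 ± 0.306 (SE), adjusted p = 3.5e-11).

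Adm, which encodes the vasodilator peptide adrenomedullin, was at 27.9, 37.6, 34.2, 35.1 and 43.9 CPM in the WT31 libraries, 0.236, 0.123, 0.206, 0.0821 and 0.157 CPM in those of B16F10 luc2 and 0.164, 0.0783, 0.123, 0.0816 and 0.0396 CPM in those of RET. Its levels in D4M were 3.57, 1.59, 2.11, 1.71 and 2.1 CPM, and its levels in HCmel12 were 1.31, 1.14, 0.734, 4.53 and 1.08 CPM. WT31 was above all other libraries, whereas B16F10 luc2 and RET were near the limit that a count of 0 allows, and the summed counts of WT31 were 370.0-fold (95% exact interval 212 to 717) those of RET. Ankrd37, a small ankyrin-repeat gene induced by HIF, was at 1.05, 0.805, 1.13, 1.09 and 0.967 CPM in the WT31 libraries, 0.394, 0.411, 0.412, 0.329 and 0.433 CPM in those of B16F10 luc2 and 0.656, 0.822, 0.37, 0.897 and 0.475 CPM in those of RET. The LM lines had Ankrd37 at 4.71, 3.97, 4.86, 4.54 and 3.97 CPM in D4M and 0.776, 0.776, 0.53, 1.07 and 0.868 CPM in HCmel12. All 5 D4M libraries were above all others, and the summed counts of D4M were 11.1-fold (95% exact interval 8.3 to 15.2) those of B16F10 luc2. Summed with the genes that share at least 1% of its 31-base stretches, the difference of Ankrd37 between these lines was not called (0.10 on the log2 scale, adjusted p = 0.14 by limma). In the same sum the Ankrd37 call in RET against D4M was lost. Those in WT31 against B16F10 luc2 and RET and in B16F10 luc2 against HCmel12 changed sign there. P4ha1, a collagen prolyl hydroxylase, was at 221 ± 10.6 CPM in D4M, 136 ± 9.88 in B16F10 luc2, 81.4 ± 6.69 in HCmel12, 71.9 ± 2.51 in WT31 and 64.8 ± 6.52 in RET (log2 fold change 1.98 ± 0.067 (SE), adjusted p = 2.5e-19 between D4M and RET). Kdm3a, a histone demethylase, was highest in RET at 114 ± 6.20 CPM and lowest in D4M at 48.1 ± 2.07 CPM (log2 fold change 1.04 ± 0.062 (SE), adjusted p = 2.4e-14). Mxi1, an antagonist of Myc, was highest in HCmel12 at 45.1 ± 17.2 CPM and lowest in B16F10 luc2 at 24 ± 1.11 CPM (log2 fold change 0.82 ± 0.151 (SE), adjusted p = 3.1e-05). Without HCmel12 replicate 4, at 74.4 CPM, its HCmel12 mean was 37.7 CPM, below the 39.8 ± 2.31 CPM of RET. Of the 8 hypoxia response genes, the highest line was thus D4M for 3, WT31 for 2, RET for 2 and HCmel12 for 1. The same lines were highest for 27.4%, 22.1%, 15.8% and 16.6% of all genes tested.

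The comparison of the study is HIM against LM, and it was made line by line, since the 3 HIM lines are not replicates of each other. Against D4M, WT31 had 11 of the 39 genes called higher and 25 lower, where 37.5% of all genes were called higher and 38.6% lower. B16F10 luc2 had 19 higher and 15 lower against D4M (38.8% and 38.9% of all genes), and RET had 20 higher and 17 lower (38.8% and 38.3%). Against HCmel12, WT31 had 8 higher and 27 lower (36.1% and 34.3% of all genes), B16F10 luc2 had 18 higher and 12 lower (35.3% and 33.8%), and RET had 16 higher and 12 lower (34% and 33.3%). The comparisons with D4M share its libraries, as do those with HCmel12. WT31 was on the low side in both, with a median log2 fold change over the 39 genes of -0.70 against D4M and -0.40 against HCmel12, while the median over all genes was -0.01 and 0.01.

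The median log2 fold change over the 14 glycolytic enzymes was 0.59 in B16F10 luc2, 0.35 in RET and -0.61 in WT31 against D4M. Against HCmel12 it was 0.48 in B16F10 luc2, 0.24 in RET and -0.48 in WT31. Against D4M, 3 of the 14 enzymes were called higher and 11 lower in WT31 (37.5% and 38.6% of all genes). The counts were 9 and 2 in B16F10 luc2 (38.8% and 38.9%) and 9 and 4 in RET (38.8% and 38.3%). Against HCmel12, 2 were called higher and 11 lower in WT31 (36.1% and 34.3%). B16F10 luc2 had 8 and 4 (35.3% and 33.8%), and RET had 8 and 4 (34% and 33.3%). Within the HIM lines, WT31 had 11 of the 39 genes called higher and 26 lower against B16F10 luc2 (36.4% and 36.4% of all genes) and 7 higher and 25 lower against RET (36.8% and 36.4%). B16F10 luc2 and RET were closer to each other, with 14 higher and 11 lower in B16F10 luc2 (25.2% and 26.2% of all genes). D4M against HCmel12 had 15 higher and 16 lower (36.8% and 35.7%). The median over the 14 enzymes in WT31 was -1.16 against B16F10 luc2 and -0.85 against RET.

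Called in the same direction in all 6 comparisons of an HIM with an LM line were 2 of the 39 genes higher, Ldhb and Vhl, where 6.53% of all genes were, and 0 lower, where 6.4% were. The 6 log2 fold changes of Ldhb ran from 1.43 to 5.20, with a largest adjusted p of 2.4e-13. Those of Vhl ran from 0.45 to 1.01, with a largest adjusted p of 3.3e-05. No member was lower in all 6 at an unadjusted p below 0.05 either, and edgeR and DESeq2 gave 0 as well. Without B16F10 luc2 replicate 3, limma called 1 gene, Pfkl, lower in all 6. Without D4M replicate 1, the D4M library with the most melanocyte transcripts, 5 calls on members were lost, against 4 to 6 without each of the other 4 D4M libraries, and Ldhb and Vhl stayed called in all 6.

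HCmel12 replicate 4 had a level above those of the other 4 libraries of its line for 23 of the 39 genes (59.0%), against 30.7% of all genes tested. Other lines also had a library that was highest for many of the 39 genes. These were 21 in RET replicate 1 (21.1% of all genes), 21 in D4M replicate 3 (26.1%) and 18 in B16F10 luc2 replicate 3 (20.1%). In HCmel12 replicate 4, at least 2-fold above the mean of the other 4 were 7 genes (17.9%), Adm, Aldoc, Bnip3, Pdk1, Ndrg1, Slc2a3 and Slc16a3, against 6.87% of all genes. The median log2 difference was 0.92 over the 8 hypoxia response genes, 0.06 over the 14 glycolytic enzymes and 0.00 over all genes. In the same library 7 of the 8 melanocyte markers were above the rest of the line, and their sum was 18509 CPM against 12591 to 13762 in the other 4. The part of this shift in the members' values was not tested. Over the 10 comparisons, 13 calls on the 39 genes were gained without the library, 3 on Egln1, 3 on Bnip3l, 2 on Mxi1 and 1 each on Eno1, Pdk1, Aldoc, Vhl and Adm. Lost was 1 call, that of Mxi1 in WT31 against HCmel12. Adm in D4M against HCmel12 went from a log2 fold change of 0.77 (adjusted p = 0.052) to 1.19 (adjusted p = 0.0017) without it, by limma. The log2 fold changes of Bnip3, Ndrg1 and Pdk1 in B16F10 luc2 against HCmel12 were not called with it, at -0.11, -0.30 and -0.30, nor without it, at 0.27, 0.03 and 0.03.

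**Figure D5:**
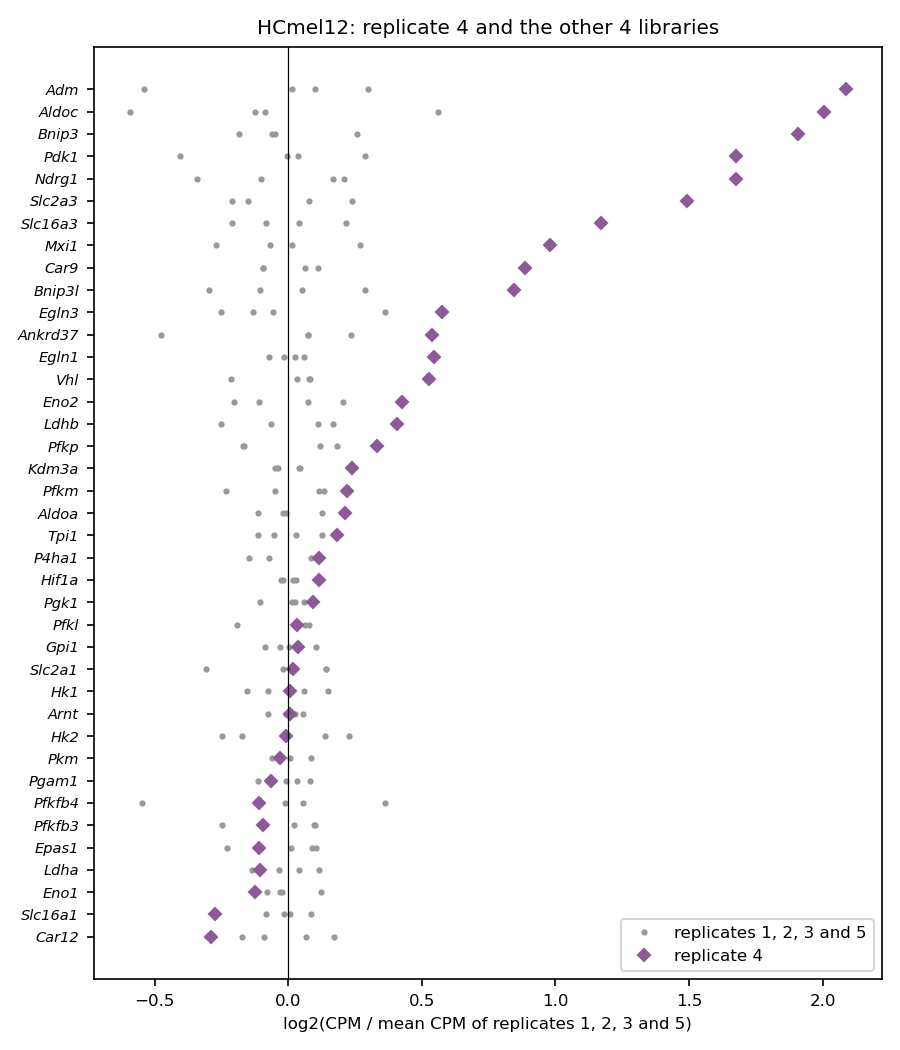
Log2 ratio of the CPM of each HCmel12 library to the mean of replicates 1, 2, 3 and 5 (x axis) for the 39 genes (y axis, ordered by replicate 4, drawn as diamonds). Replicate 4 stands far right of the other 4 libraries for Adm, Aldoc, Bnip3, Pdk1 and Ndrg1, and lies among them for Pfkl, Gpi1, Hk1, Hk2 and Pkm.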

How the data were processed

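RNA-seq was made from 5 murine melanoma lines, 5 libraries each. The authors trimmed reads with Trim Galore 0.6.4 and estimated transcript levels with kallisto (0.4.6 in the submitters' processing notes) on GRCm38.p6. The annotation release and the step from transcripts to genes are not given in the sources used here. The deposited values are estimated counts per gene and TPM, not pooled. Estimated counts were rounded only for edgeR and DESeq2. Counts were scaled by TMM (edgeR 4.0.16), filtered by filterByExpr and tested with voom and limma 3.58.1 (R 4.3.3) in 1 fit of all 25 libraries with a mean for each line. P-values were adjusted by Benjamini-Hochberg over the 15247 genes for each comparison, with calls below 0.05. CPM are counts scaled to a library total of 1000000. TPM were used for 24 libraries, with D4M replicate 1 not used here. Exact intervals on ratios of summed counts cover counting error only. A gene of the same symbol as Aldoa, with 6 to 35 counts, was left out. Levels are listed for every library of members that span at least 8-fold, that were called in all 6 comparisons or that are HIF subunits or regulators, and of Pdk1 and Bnip3, which were added after their values were seen. Alternatives were DESeq2 1.42.0, edgeR, other scalings, filters, TPM, sequence sharing (31-base stretches) and leaving out libraries. The members and the other gene lists were chosen with earlier results of these data known. The genotypes of B16F10 luc2 and D4M are given in part, and the rest is not reported here.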

Additional observations from a re-analysis of the deposited data

Results flagged for a closer look

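Within a line, the highest or lowest of the 5 libraries lay far from the other 4 (Dixon's test at 95%) for 15 of 195 combinations of gene and line, where chance alone gives about 1 in 20. HCmel12 replicate 4 accounted for 9, each as the highest library of its line: Slc2a3 at 24.1 CPM against 7.41 to 10.1 in the other 4, Aldoc at 49.7 against 8.20 to 18.3, Pdk1 at 59.7 against 14.1 to 22.8, Slc16a3 at 21.8 against 8.39 to 11.3, and Egln1 at 104.0 against 67.9 to 74.2. Car9 was at 3.87 CPM there against 1.96 to 2.26, Bnip3 at 66.8 against 15.7 to 21.3, Ndrg1 at 130.5 against 32.2 to 47.2, and Adm at 4.53 against 0.734 to 1.31.

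The other 6 were spread over 6 libraries. Pfkl was at 128.3 CPM in RET replicate 1 against 87.9 to 98.8 in the rest of RET, and at 186.5 CPM, as the lowest, in HCmel12 replicate 3 against 218 to 225 in the rest of HCmel12. Car12 was at 0.207 CPM in WT31 replicate 2 against 0 to 0.0404, and at 9.43 CPM in RET replicate 2 against 6.20 to 6.65. Adm was at 3.57 CPM in D4M replicate 1 against 1.59 to 2.11, and Mxi1 at 33.4 CPM in D4M replicate 3 against 24.8 to 26.3.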

How the results depend on the processing

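The difference between the highest and the lowest line kept its direction and its call for all 39 genes with TMM replaced by library size or DESeq2 size factors, with edgeR or DESeq2, with no filter, with only both lines compared, with TPM plus 1 or plus 0.1, and without each of the 25 libraries in turn, and for the 32 genes left with at least 10 counts in every library. Library size alone shifted the median of all genes against D4M by 0.15 to 0.22 on the log2 scale. Members called lower in all 6 comparisons ranged from 0 to 1 over the left-out libraries. The replicate numbers do not pair libraries across lines: over 50 same-number pairs the mean correlation of deviations was -0.004 (-0.091 to 0.104), and 3 of 25 libraries correlated best with their own number. With a replicate block, 3 of the 325 calls on members in the 10 comparisons were lost and 3 gained, and 2 members were higher and 0 lower in all 6. Depth limits the low ends of Slc2a3, Car9, Car12 and Adm, whose lowest lines lie at or near 3 counts per library.

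Summing each member with every gene that shares any 31-base stretch, up to 2760 genes, left 7 members higher in WT31 against D4M, 12 higher in RET against D4M, 5 lower in B16F10 luc2 against RET, 8 lower in D4M against HCmel12 and 2 lower in all 6. Of the 325 calls, 54 were lost and 47 changed sign, and 22 were gained. Among the differences between the highest and the lowest line, it turned the sign of Slc2a3 in RET against WT31 (-0.205), Hk2 in B16F10 luc2 against D4M (-0.601), Pfkl in HCmel12 against WT31 (-0.175), Epas1 in WT31 against B16F10 luc2 (-0.005), Car12 in RET against WT31 (-0.336) and Pfkfb3 in B16F10 luc2 against D4M (-0.381), an alternative that by construction adds the counts of other genes. Also lost were the calls of Pdk1 and Pfkfb4 in D4M against WT31, Adm in WT31 against RET and Ankrd37 in D4M against B16F10 luc2. Limited to genes sharing at least 1%, an alternative chosen after seeing the data, 1 member was lower in all 6. It was Bnip3 with the added counts of AC160336.1, among others, while Bnip3 alone was called lower in 4 of the 6. With this limit, which likewise adds the counts of other genes, 7 calls were lost, 5 gained and 5 changed sign. The changes of sign were those of Bnip3 in WT31 against B16F10 luc2 and RET and of Ankrd37 in the same 2 comparisons and in B16F10 luc2 against HCmel12. The lost calls were those of Ldha in WT31 against D4M, HCmel12 and RET and of Ankrd37 in B16F10 luc2 and RET against D4M. Slc2a3 in WT31 against D4M and Car9 in RET against HCmel12 were lost too.

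The calls that moved when a log2 fold change of at least 1 was also asked for were 6 higher and 16 lower (all genes 2839 and 2754) in WT31 against D4M, 12 higher (all genes 2764 and 3305) in B16F10 luc2 against D4M, 10 higher (all genes 2809 and 3166) in RET against D4M, 3 higher and 11 lower (all genes 2287 and 2289) in WT31 against HCmel12, 6 higher and 6 lower (all genes 1853 and 2436) in B16F10 luc2 against HCmel12. For the others they were 4 higher and 5 lower (all genes 1889 and 2160) in RET against HCmel12, 6 higher and 14 lower (all genes 2706 and 2088) in WT31 against B16F10 luc2, 4 higher and 13 lower (all genes 2538 and 2216) in WT31 against RET, 3 higher and 5 lower (all genes 928 and 1247) in B16F10 luc2 against RET, 8 higher and 8 lower (all genes 2736 and 2668) in D4M against HCmel12. In all 6 comparisons this left 1 member higher and, of all genes, 255 higher and 375 lower. With no filter on counts, 9399 of all genes were lower in WT31 against D4M and 9019 in RET against D4M. With at least 10 counts in every library, 4 members were higher in WT31 against RET. Of all genes, those lower in all 6 numbered 645 with that filter, 612 with TPM plus 1 and 635 with TPM plus 0.1.

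With CPM in place of TPM, which drops the length scaling, the share of Hk2 was 64.5% in B16F10 luc2, 22.5% in RET, 17.9% in WT31, 15% in HCmel12 and 6.2% in D4M, and that of Pfkp in D4M 27.3%. The share of Ldhb was 19.8% in WT31, 11.0% in RET, 9.43% in B16F10 luc2 and 0.402% in D4M, and that of Epas1 13.8% in D4M and 6.02% in HCmel12. The share of Egln3 was 2.67% in WT31, 5.26% in RET, 61.6% in D4M and 5.75% in HCmel12. The summed level of the 14 glycolytic enzymes was 1.37% of all counts in B16F10 luc2, 1.26% in RET, 1.05% in D4M, 0.921% in HCmel12 and 0.678% in WT31. The cause of the other changes was not tested.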

Other observations

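Of 39 further genes of glycolysis and pyruvate use, 31 were tested and all 31 differed between the lines by limma's F-test, as did 96.8% of all genes. The insulin-responsive glucose transporter Slc2a4 was at 30.4 CPM in HCmel12 and 0.072 in WT31. Pdk4, another pyruvate dehydrogenase kinase, was at 3.62 CPM in HCmel12 and 3.10 in D4M and had no count in WT31. Slc16a7, the monocarboxylate transporter MCT2, was at 9.20 CPM in WT31. Over the 10 comparisons, 7 to 17 of the 31 were called higher and 9 to 17 lower, where 25.2% to 38.8% and 26.2% to 38.9% of all genes were. The median log2 fold change ran from -0.39 in RET against HCmel12 to 0.36 in B16F10 luc2 against D4M.

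Of 38 further hypoxia genes, 35 were tested and all 35 differed between the lines (96.8% of all genes). Igfbp3, a binding protein of insulin-like growth factors, was at 4762 CPM in D4M, 97.3 in WT31 and 0.016 in B16F10 luc2. The lipoprotein receptor Vldlr was at 88.5 CPM in WT31 and 60.7 in D4M, and the secreted glycoprotein Stc1 at 33.0 CPM in D4M and 15 in HCmel12. Over the 10 comparisons, 10 to 14 of the 35 were called higher and 5 to 18 lower, where 25.2% to 38.8% and 26.2% to 38.9% of all genes were. HCmel12 replicate 4 was above the rest of its line for 21 of the 35 (60.0%, against 30.7% of all genes), among them Vegfa, the vascular growth factor, at 70.2 CPM against 26.7 to 34.7 and the mTOR inhibitor Ddit4 at 8.98 against 1.71 to 2.93. For the 31 genes of glycolysis and pyruvate use it was above the rest of its line for 11 (35.5%), Pdk2 among them at 8.73 CPM against 1.51 to 2.99, and below for 9 (29.0%, against 30.3% of all genes).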
